A study of Homo sapiens with 3 samples.

Results

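The 45 captured fragments described here form the telomeric segment of the captured region at 9q31.2, 45 of its 100 fragments and of 1077 captured fragments in the whole series. They were chosen by position alone, as the fragments of that region from chromosome 9 position 110930755 to its telomeric end at 111099364 (GRCh37). The whole captured region ran from 110758376 to 111099364, so the other 55 fragments lay on its centromeric side. The series counted contacts of chromosome regions linked to breast cancer risk by capture Hi-C. BT483 is a breast cancer line from a primary invasive ductal carcinoma, whose cells were opened with trypsin. SUM44 is a breast cancer line from a pleural effusion, grown with 1 nM estradiol and opened with a dounce homogeniser. GM06990 is a lymphoblastoid line of B lymphocytes, also opened with a dounce homogeniser, and serves as the non-breast line. All 3 lines were fixed for 5 min with 2% formaldehyde, cut with HindIII, and deposited as 1 sample each with 2 replicate count columns (n = 2 per line). Each line comes from a single source, so a difference between lines cannot be told apart from a difference in tissue, lysis or growth medium, and contact counts hold no marker genes with which to check the line labels.

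In capture Hi-C, neighbouring DNA ends within fixed nuclei are joined, and the joined pairs that hold a chosen fragment are then pulled out with complementary probes. Contacts become rarer with distance along the chromosome, so a pair of distant fragments draws attention only when it is joined more often than other pairs at that distance. The captured region is part of a stretch of 9q31.2 with few genes. KLF4, a zinc finger transcription factor that acts in the differentiation of epithelia, and RAD23B, a DNA damage recognition factor, lie on its centromeric side, and the actin-like genes ACTL7A and ACTL7B on its telomeric side. No gene is assigned to a fragment or window below, because the gene table used another genome build than the counts.

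A near contact was a read pair joining a captured fragment to 1 of 2949 target fragments outside the captured region, between 105760382 and 116095587. Trans contacts, joined to other chromosomes, served as the scale of each captured fragment, so levels are near contacts per 100 trans contacts of that fragment. The 45 fragments had 12080 and 57900 near contacts in the replicates of BT483, 30679 and 27511 in GM06990, and 62923 and 56168 in SUM44. Their trans contacts numbered 54287 and 187663, 69787 and 155812, and 61260 and 60651. BT483 replicate 1 was the shallowest library. The replicates of GM06990 stood apart from each other in level, at 44.0 and 17.7 near contacts per 100 trans contacts summed over the 45 fragments, against 22.3 and 30.9 in BT483 and 103 and 92.6 in SUM44. SUM44 lay above both other lines, which also holds for the other segment of the region (94.8 and 85.4, against at most 43.8).

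Long fragments made more near contacts per trans contact than short ones. The 45 fragments ranged from 13 to 13751 bp with a median of 2370 bp, and 2 were under 120 bp. The 12 fragments of 5000 bp or more had median centromeric levels of 14.1 and 20.8 in BT483, 38.5 and 15.3 in GM06990, and 74.0 and 72.9 in SUM44. The 15 fragments under 1000 bp had medians of 9.21 and 13.8, 18.1 and 6.81, and 38.8 and 29.0. The long class was above the short class in each of the 6 replicate columns, and the telomeric levels ran the same way. Spearman's rho between length and centromeric level over the 45 fragments was 0.659 and 0.687 in BT483, 0.808 and 0.869 in GM06990, and 0.710 and 0.813 in SUM44. It is given as a description, since the fragments of a library share its depth and neighbouring fragments share their surroundings.

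Fragments are named below by their number in the deposited tables, which follows their order along the chromosome, from 68 at the centromeric end of the segment to 112 at its telomeric end. Fragment 85 (chromosome 9, 111020204 to 111033954, 13751 bp) had the highest centromeric level on average over the 6 columns. It reached 17.4 and 29.8 in BT483, 44.3 and 16.4 in GM06990, and 98.8 and 109 in SUM44. Fragment 92 (111046449 to 111056677, 10229 bp) was next on that side and had the highest average telomeric level, at 16.2 and 27.2, 33.5 and 13.4, and 88.3 and 89.2. Both are among the longest of the segment. In both, the replicates of GM06990 overlapped those of BT483 and the replicates of SUM44 lay above them.

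At the low end stood fragment 107 (111093874 to 111094507, 634 bp) on the centromeric side. Its levels were 9.67 and 10.2 in BT483, 10.7 and 4.83 in GM06990, and 24.7 and 19.3 in SUM44. On the telomeric side the lowest was fragment 81 (111000735 to 111001524, 790 bp), with 7.56 and 8.78, 11.2 and 5.19, and 25.9 and 22.6. Within 1 replicate column the highest and lowest of the 45 fragments differed 3.33-fold to 5.68-fold on the centromeric side and 2.79-fold to 4.83-fold on the telomeric side. The 13 bp fragment 111 (111095278 to 111095290), which is shorter than a usual capture probe, still had 101 to 302 trans contacts per column.

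The share of near contacts that pointed to the telomere grew toward the telomeric end of the segment. The 15 most centromeric fragments sent 41.5% and 44.6% of their near contacts that way in BT483, 40.7% and 41.5% in GM06990, and 44.7% and 42.9% in SUM44. The 15 most telomeric fragments sent 56.1% and 51.4%, 48.8% and 46.6%, and 54.3% and 55.0%. In each column the telomeric 15 were above the centromeric 15. Fragment 68, the first of the segment (110930755 to 110940017), gave 44.4% and 44.5%, 40.0% and 42.7%, and 46.3% and 42.3%. Fragment 112, the last (111095291 to 111099364), gave 68.2% and 52.9%, 53.1% and 45.8%, and 57.5% and 58.4%. Targets on the telomeric side begin directly after fragment 112, so this order goes with the distance to the nearest targets. It did not hold at matched distance, over targets from 350 kb away to the farthest distance that both directions cover. There the centromeric 15 had 40.2% and 44.0% in BT483, 38.4% and 39.3% in GM06990, and 44.0% and 42.2% in SUM44. The telomeric 15 were lower in each column, with 38.7% and 40.3%, 35.0% and 33.8%, and 38.8% and 39.3%.

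With distance matched, the telomeric segment turned toward the centromere more than the other segment did. Over targets from 350 kb away to the farthest distance that both directions cover, the telomeric share of its contacts was 37.1% and 41.0% in BT483, 35.9% and 36.5% in GM06990, and 39.7% and 38.9% in SUM44. The other segment had 47.2% and 50.6%, 44.0% and 42.9%, and 49.7% and 49.8%. The 2 segments did not overlap in any line, and the difference was -9.18 percentage points (SD 1.64, 6 columns, lower in 6 of 6). An exact two-sided sign-flip permutation test over the 6 columns gave p = 0.0312, the smallest it can give, and 0.0312 after adjustment over the 2 measures compared. In total near level the segments were close: the telomeric segment was higher by 0.06 on the log2 scale (SD 0.05, higher in 6 of 6 columns, the same exact permutation p). That difference was taken within each column, so the gap in level between the replicates of GM06990 is no yardstick for it. It was small, close to its own SD. Replicate columns of 1 line share cells or their source, so the 6 columns are not 6 independent lines. The permutation test flips each column on its own, so its p-value does not measure the spread between lines.

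The centromeric excess was largest at 500 to 1000 kb. Expected counts came from a regression of the pair counts of all 9q31.2 fragments on distance and trans count, fitted to each replicate column. On the centromeric side, the 45 fragments had 1.94 ± 0.28 times the expected contacts in BT483 (mean ± SD, n = 2), 1.85 ± 0.06 in GM06990 and 1.86 ± 0.07 in SUM44 at 500 to 750 kb. At 750 to 1000 kb the ratios were 2.16 ± 0.27, 1.86 ± 0.15 and 2.16 ± 0.02, where the other segment had 0.82 ± 0.12, 0.863 ± 0.0042 and 0.79 ± 0.01. On the telomeric side at 750 to 1000 kb the 45 fragments had 0.62 ± 0.06, 0.53 ± 0.03 and 0.61 ± 0.01. There the other segment was also below expected, less so, at 0.84 ± 0.10, 0.63 ± 0.02 and 0.87 ± 0.01. The other segment, which lies nearer to the centromeric targets, had its own highest centromeric ratios at 500 to 750 kb (1.70 ± 0.26, 1.62 ± 0.09 and 1.54 ± 0.02).

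Of all 50 kb windows, the one with the highest ratio in its lowest column was 110200001 to 110250000, on the centromeric side. Summed over the 45 fragments it had 3.41 and 2.78 times the expected contacts in BT483, 2.75 and 3.15 in GM06990, and 3.03 and 3.10 in SUM44. The other segment had 2.01 and 1.68, 1.63 and 1.91, and 1.70 and 1.83 in the same window. The next window, 110250001 to 110300000, had 4.16 and 2.81, 2.84 and 3.03, and 2.90 and 2.64. The lowest column of the telomeric segment thus lay above the highest of the other segment in the first window, while in the second they overlapped (the other segment reached 3.17 in BT483 replicate 1). The breast lines and GM06990 overlapped in both windows.

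Single pairs that stood above the distance background pointed to the same place. Per line, replicates summed, each of 291951 pairs of the region was set against a negative binomial background, and pairs with a Benjamini-Hochberg adjusted p of at most 0.01 and at least 5 contacts were called. Pairs are not replicates, so such a p describes 1 line. In BT483 15 pairs were called (0.00514% of those tested), and 9 of them belonged to the 45 fragments. In SUM44 4 were called (0.00137%), all with these fragments. In GM06990 none was called (0%) with this background, with 1414 pairs at an unadjusted p under 0.05. With a Poisson background 9 pairs of these fragments were called in GM06990, and whether the lines differ in calls was not tested.

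Fragment 86 (111033955 to 111035778, 1824 bp) held most of the calls. In BT483 it was called with 5 targets and in SUM44 with 3. Its strongest pair in BT483 was with the target 110241988 to 110244649, 792 kb away. This pair was seen 6 and 19 times in BT483, where 1.43 contacts were expected in all, a ratio of 17.5 (95% Poisson interval 11.3 to 25.9). It was seen 3 and 5 times in GM06990 (ratio 7.75, 3.35 to 15.3) and 11 and 13 times in SUM44 (9.54, 6.11 to 14.2). By replicate the ratios were 36.6 and 14.8 in BT483 (0.164 and 1.29 expected), 5.61 and 10.4 in GM06990, and 8.10 and 11.2 in SUM44. The pair was picked as the strongest in BT483, and the intervals cover counting error only, not the spread between replicates. With replicates summed, the GM06990 ratio was lower with an interval that overlaps those of both breast lines. Its strongest pair in SUM44 was with the target 110195013 to 110201199, seen 16 and 18 times (ratio 14.6, 10.1 to 20.5), against 3 and 12 times in BT483 (11.2, 6.29 to 18.5) and 4 and 4 times in GM06990 (8.26, 3.57 to 16.3). This target was called in both breast lines, and so was 110244650 to 110255868, with ratios of 15.3 in BT483 and 11.8 in SUM44.

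The other far calls were fragment 88 (111036599 to 111038407) in BT483, with the target of fragment 86's strongest pair (ratio 10.5, 6.35 to 16.5), and fragment 93 (111056678 to 111061679) in SUM44, with 110201200 to 110207271 (14.5, 8.85 to 22.4). The latter pair was seen 0 and 3 times in BT483, 0 and 6 times in GM06990, and 14 and 6 times in SUM44. Its counts were uneven between replicates in GM06990 (0.419 and 0.369 expected) and SUM44 (0.750 and 0.638 expected). In BT483 0.183 and 0.698 were expected, too few to say whether the replicates differed. The remaining 3 calls in BT483 joined fragments 107, 108 and 112 to the target that adjoins the captured region, 111099365 to 111110478. Fragment 108 (111094508 to 111094809) made 28 and 19 contacts with it in BT483, 10 and 13 in SUM44, and 1 and 5 in GM06990. These 3 calls lay 7.59 to 10.7 kb from the fragment and could not be made when pairs within 50 kb were left out of the fit, and that fit called 5 pairs of these fragments. The fitted background lay below the counts of the nearest pairs in general: all 20 pairs of the region under 12 kb apart together had 7.77 and 7.80 times the expected contacts in BT483, 3.20 and 4.44 in GM06990, and 4.18 and 4.21 in SUM44. The expected counts of the 3 near calls are thus unreliable, and these calls are not shown to stand above other pairs at their distance. A background without the trans count called 4, none of them near. Only 2 pairs of these fragments were called in BT483 without replicate 2 and 3 without replicate 1. In SUM44 1 was called without replicate 1 and 5 without replicate 2.

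The far targets called in the breast lines span 110183823 to 110280502, a stretch of 96.7 kb with 18 targets, 478 kb from the captured region. The stretch was drawn from the calls of BT483 and SUM44 and is described here without a test. Most of those calls were pairs of fragment 86, so its high ratio in the breast lines follows in part from the choice, while GM06990 had no part in it. Observed contacts over expected, summed over the stretch, were highest at fragments 86 and 85, in that order, in each of the 3 lines with replicates summed. Fragment 86 made 41 and 167 contacts with the stretch in BT483, 51 and 55 in GM06990, and 177 and 155 in SUM44. The ratios were 14.0 and 7.27, 5.34 and 6.38, and 7.31 and 7.51. Fragment 85 had 9.64 and 5.89, 5.51 and 5.72, and 6.42 and 7.17. Of the 99 captured fragments of the region with counts, fragment 86 ranked first in 5 of 6 columns and was second in GM06990 replicate 1, where fragment 85 was first. The profile was not a single rise: fragment 73, far from them at the centromeric end, had 6.17 in GM06990 replicate 2, above fragment 85.

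The fragments on each side of fragments 85 and 86 had lower ratios. Fragment 84 (111007184 to 111020203) had 4.20 and 5.16 in BT483, 2.80 and 4.03 in GM06990, and 3.21 and 3.21 in SUM44. Toward the telomere, fragment 87 (111035779 to 111036598) had 8.65 and 4.40, 2.68 and 3.86, and 3.64 and 4.81, and fragment 92 had 4.42 and 5.06, 4.44 and 5.10, and 4.90 and 5.01, above fragment 87 in all columns but BT483 replicate 1. Fragment 98 (111065831 to 111067873) was back at 1.67 and 2.34, 1.99 and 2.07, and 2.96 and 2.87. The 8 fragments from 85 to 92 (111020204 to 111056677), singled out after their values were seen, had medians of 6.13 and 4.61 in BT483, 4.34 and 4.07 in GM06990, and 5.03 and 5.12 in SUM44. The other 37 of the segment had medians of 3.11 and 2.36, 2.26 and 2.50, and 2.56 and 2.27, and 54 fragments of the other segment 2.45 and 1.81, 1.99 and 2.15, and 1.98 and 1.89. Single fragments of these sets overlapped.

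The ratio over the stretch was higher in longer fragments among the other 37, with a Spearman's rho with length of 0.205 to 0.717 over the 6 columns. Among the 8 fragments rho ran from -0.21 to 0.714. The part of length in the order was not tested. Taken as a share of the fragment's own centromeric contacts, the contacts with the stretch had a rho with length of -0.29 to 0.06 over the 37 and -0.55 to -0.14 over the 8. These rho values are descriptions. On this measure fragment 86, itself only 1824 bp, stayed near the top, with 17.5% and 11.2% in BT483, 10.3% and 10.8% in GM06990, and 10.3% and 10.3% in SUM44. Its rank among the 99 was 1 and 2 in BT483, 3 and 2 in GM06990, and 2 and 6 in SUM44. Fragment 85, the longest of the 45, had 13.8% and 8.45%, 7.95% and 8.12%, and 9.38% and 8.94%, and ranked from 3 to 17. The medians of the 8 fragments were 10.8% and 8.86%, 7.94% and 8.49%, and 9.16% and 9.11%, against 7.46% and 6.37%, 6.31% and 6.29%, and 7.37% and 6.87% for the other 37. The 8 had the higher median in each of the 6 columns, by a smaller factor than on the first measure. They were singled out by their contacts with the same stretch, so a higher median follows in part from that choice.

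Between lines no difference in the contacts of the top fragments with this place passed the adjusted threshold. Counts per fragment and 50 kb window were compared with edgeR's quasi-likelihood test, with the expected count as offset. Fragment 86 and the window 110200001 to 110250000 differed by 0.80 on the log2 scale between BT483 and GM06990 (SE 0.35, adjusted p = 0.268) and by 0.50 between SUM44 and GM06990 (SE 0.33, adjusted p = 0.473). For the window before it, 110150001 to 110200000, the differences were 0.66 (SE 0.40, adjusted p = 0.509) and 0.99 (SE 0.36, adjusted p = 0.100). With SEs of this size a difference of 1 on the log2 scale could not be told from none, so the lines are not shown to be alike there. Over the 39 fragments tested in 110150001 to 110200000, 30 were higher in SUM44 than in GM06990 (median 0.40). Of these 39, 0 were called and 7 had an unadjusted edgeR p under 0.05. The numbers higher were 20 of 39 (median 0.04) in 110200001 to 110250000 and 15 of 39 (median -0.05) in 110250001 to 110300000. For BT483 minus GM06990, 22, 14 and 22 of 39 were positive in these windows.

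The levels of a few fragment sides did differ between lines. Each side of each captured fragment of the series was tested with edgeR's quasi-likelihood test, scaled by trans count and by 1 factor per library, so a call is a difference relative to the typical captured fragment. The libraries differ in that factor: without it the median of all sides moved to -0.13 for BT483 minus GM06990, 1.65 for SUM44 minus GM06990 and -1.78 for BT483 minus SUM44 (log2). Between BT483 and GM06990, 7 of the 90 sides were called (7.78%), where 20.5% of all 2058 sides were. The 3 higher in BT483 were telomeric sides (all sides 11.5% higher) and the 4 lower were centromeric sides (8.99% lower). Their share of calls was below that of the series.

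The 3 higher sides were those of fragments 89, 108 and 110. Fragment 110 (111095090 to 111095277, 188 bp) had telomeric levels, after division by the library factor, of 32.2 and 22.2 in BT483, 13.2 and 11.8 in GM06990, and 19.1 and 15.8 in SUM44, and BT483 was higher than GM06990 by 1.02 (log2, SE 0.28, edgeR adjusted p = 0.0117). Fragment 108 had 23.6 and 19.1, 12.1 and 12.5, and 19.9 and 17.8 (log2 0.76, SE 0.20, edgeR adjusted p = 0.00871). Both are among the last 5 fragments before the telomeric end. Fragment 89 (111038408 to 111038716, 309 bp) had 21.2 and 20.0, 16.0 and 12.7, and 23.0 and 21.2 (log2 0.51, SE 0.17, edgeR adjusted p = 0.0299). In none of the 3 did the replicates of BT483 overlap those of GM06990. Over targets 350 kb or more away no side was called higher in BT483, and 5 centromeric sides were called lower.

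The 4 lower sides were the centromeric sides of long fragments at the centromeric end of the segment, 68, 71, 73 and 78. The direction of the 7 calls thus also went with length. The 3 higher sides were of fragments of 188 to 309 bp and the 4 lower of 5264 to 13659 bp. Spearman's rho between length and centromeric level was larger in GM06990 (0.808 and 0.869) than in BT483 (0.659 and 0.687). The part of length in these calls was not tested. Fragment 73 (110952819 to 110966477, 13659 bp) had 27.6 and 23.0 in BT483, 38.1 and 40.5 in GM06990, and 30.2 and 32.5 in SUM44 (BT483 minus GM06990 -0.66, SE 0.20, edgeR adjusted p = 0.0195). Fragment 68 had 26.3 and 25.2, 37.0 and 34.1, and 28.5 and 35.5 (-0.47, SE 0.17, edgeR adjusted p = 0.0468). Again the replicates of BT483 and GM06990 did not overlap in either. The centromeric sides of the 45 fragments had a median difference of -0.23 between these lines, against 0.06 over all centromeric sides, and 13 of 45 were positive. This median was -0.05 for targets within 2 Mb (19 of 45 positive), -0.10 without BT483 replicate 2 and -0.12 without GM06990 replicate 1. The count of 7 became 1 without either replicate of GM06990, 3 without either replicate of SUM44, and 15 without BT483 replicate 2.

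Between SUM44 and GM06990, 3 of 90 sides were called, all telomeric and higher in SUM44 (3.33%, where 3.69% of all sides were called and 0.777% higher). They were fragments 89, 90 and 100. Fragment 100 (111067944 to 111071787) had levels of 26.3 and 29.6 in SUM44, 20.2 and 15.0 in GM06990, and 18.7 and 18.4 in BT483 (SUM44 minus GM06990 0.67, SE 0.17, edgeR adjusted p = 0.0224). Fragment 90 (111038717 to 111042644) had 29.4 and 32.8, 24.1 and 17.3, and 22.2 and 24.6 (0.59, SE 0.16, edgeR adjusted p = 0.0428). The replicates of SUM44 lay above those of GM06990 in both. Fragment 89 was higher by 0.62 (SE 0.16, edgeR adjusted p = 0.0276), and its telomeric side is thus called against GM06990 in each breast line, 2 comparisons that share the GM06990 replicates. No side was called over targets 350 kb or more away, without either replicate of SUM44 or without GM06990 replicate 2, and 8 were called without either replicate of BT483.

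Between BT483 and SUM44, 3 of 90 sides were called, all lower in BT483 (3.33%, where 11.4% of all sides were called and 2.53% lower). Fragment 100 was lower in BT483 by 0.60 on its telomeric side (SE 0.17, edgeR adjusted p = 0.0229). Fragment 93 had telomeric levels of 22.9 and 26.1 in BT483 and 32.8 and 36.5 in SUM44, and fragment 103 (111076991 to 111084049) centromeric levels of 25.1 and 23.6 and 31.7 and 37.0. The replicates did not overlap in any of the 3. DESeq2 called 1 side, a fit with a replicate block 8, and the fits without either replicate of SUM44 0. Without either replicate of GM06990 1 side was called, and without BT483 replicate 2 16 were.

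The direction in which a fragment's contacts pointed was tested within each fragment, as the ratio of telomeric to centromeric contacts, which cancels capture efficiency and depth. Between SUM44 and GM06990, 5 of the 45 fragments were called (11.1%), all more telomeric in SUM44, where 18.7% of 1027 fragments were called and 7.98% in that direction. These 5, fragments 98, 100, 101, 102 and 104, lie within 7 fragments of each other. The telomeric share of fragment 98 was 55.0% and 54.1% in SUM44, 48.7% and 45.6% in GM06990, and 52.4% and 52.4% in BT483 (log2 ratio of ratios 0.42, SE 0.13, edgeR adjusted p = 0.0231). That of fragment 104 (111084050 to 111084528) was 53.8% and 55.5%, 45.7% and 43.9%, and 57.9% and 54.8% (0.57, SE 0.19, edgeR adjusted p = 0.0392). In both, the replicates of GM06990 were the lowest of the 6 columns.

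Fragment 104 was also the single fragment called between BT483 and GM06990 (2.22%, where 14.2% of all fragments were called and 0.779% in that direction), at 0.63 (SE 0.20, edgeR adjusted p = 0.0392). The median over the 45 fragments was 0.20 for BT483 minus GM06990 and 0.25 for SUM44 minus GM06990, and 39 and 43 of 45 were positive. Over all 1027 fragments the medians were -0.15 and 0.05, and over 53 fragments of the other segment of 9q31.2 they were 0.27 and 0.14, so a positive median was found in both segments. For targets within 2 Mb the medians of the 45 fell to 0.08 (28 positive) and 0.15 (38 positive). Both comparisons use the same GM06990 replicates. Between BT483 and SUM44 edgeR called none of the 45 (10.8% of all), with 0 at an unadjusted p under 0.05 and 0 by DESeq2, and the median was -0.08. The 1 call against GM06990 in BT483 became 0 without a replicate of GM06990 or SUM44, 5 without BT483 replicate 1 and 4 without BT483 replicate 2. The 5 calls in SUM44 became 0 without either replicate of GM06990 or of SUM44, 15 without either replicate of BT483, 1 by DESeq2 and 12 without the nearest 50 kb.

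Windows that differed between lines were few. Of 1852 combinations of the 45 fragments with a 50 kb window, 18 were called between SUM44 and GM06990 (17 higher in SUM44 and 1 lower), where 4.05% of all 42247 combinations were (2.29% higher, 1.76% lower), and 6 between BT483 and GM06990 (5 higher in BT483 and 1 lower), where 1.51% were (0.703% higher, 0.802% lower). The 18 were on the centromeric side between 110000001 and 110750000 and in the telomeric windows 111500001 to 111550000 and 111700001 to 111750000. Between BT483 and SUM44 edgeR called none (0.0402% of all), with 102 at an unadjusted p under 0.05 and 0 by DESeq2.

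The combination with the lowest adjusted p was fragment 90 with 110700001 to 110750000, a window just centromeric of the captured region. The ratio to expected was 1.86 and 1.82 in SUM44, 0.72 and 0.70 in GM06990, and 1.86 and 1.37 in BT483 (SUM44 minus GM06990 1.36, SE 0.31, edgeR adjusted p = 0.00117). Fragment 86 with 110500001 to 110550000 had 2.94 and 3.35, 0.80 and 1.60, and 2.45 and 2.50 (1.41, SE 0.33, edgeR adjusted p = 0.00170). Fragment 89 with the same window had 1.88 and 2.43, 0.79 and 0.82, and 1.78 and 1.73 (1.42, SE 0.36, edgeR adjusted p = 0.00524). In all 3 SUM44 did not overlap GM06990. Over the fragments tested in that window, 33 of 42 were higher in SUM44 with a median of 0.35. This window is nearer than the stretch in which the pairs of fragment 86 were called. Fragment 86 was also called higher in SUM44 in 110450001 to 110500000 (1.46, SE 0.43) and in the telomeric window 111500001 to 111550000 (1.03, SE 0.31). Its difference in 110150001 to 110200000, which the stretch enters, was 0.99 (SE 0.36) and was not called. Whether these differences were unlike each other was not tested.

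In the telomeric window 111700001 to 111750000 the 45 fragments together had fewer contacts than expected in each line, with ratios of 0.60 and 0.75 in BT483, 0.41 and 0.38 in GM06990, and 0.69 and 0.70 in SUM44. Fragment 88 had 0.75 and 1.06 in SUM44, 0.38 and 0.22 in GM06990, and 0.68 and 0.82 in BT483 (SUM44 minus GM06990 1.53, SE 0.43, edgeR adjusted p = 0.0147). Over the 39 fragments tested there, 35 were higher in SUM44 (median 0.87, 3 called) and 36 in BT483 (median 0.79, 2 called) than in GM06990. Fragment 87 with this window was called between BT483 and GM06990 on 1 and 58 contacts in the replicates of BT483, against 5 and 6 in GM06990, and the difference turned from 2.09 to -0.55 without BT483 replicate 2. Fragment 89 with the same window had 1.19 and 0.91 in BT483, 0.23 and 0.32 in GM06990, and 0.79 and 0.71 in SUM44 (BT483 minus GM06990 1.84, SE 0.54, edgeR adjusted p = 0.0451).

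Of the further combinations called between BT483 and GM06990, fragment 89 with 110600001 to 110650000 had ratios of 1.14 and 2.05 in BT483 against 0.83 and 0.50. Fragment 86 with 110550001 to 110600000 had 6.65 and 2.62 against 1.56 and 1.53. Fragment 90 with 114750001 to 114800000 had 7 and 18 contacts in BT483, 1 and 0 in GM06990, and 3 and 9 in SUM44. The 1 combination lower in BT483 was fragment 112 with 110350001 to 110400000, at 1.64 and 0.64 against 3.03 and 3.55 (-1.92, SE 0.54, edgeR adjusted p = 0.0328). In SUM44 the 1 lower combination was fragment 73 with 110250001 to 110300000, at 1.89 and 0.47 against 4.10 and 6.42 (-2.06, SE 0.66, edgeR adjusted p = 0.0470), on 9 and 2 contacts. The replicates of the lines compared did not overlap in these combinations.

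The window calls were not stable to the test or to single libraries. DESeq2 called 0 of the 6 and 0 of the 18 in number, and the fit with a replicate block 3 and 11. Without either replicate of GM06990 there were 0 and 1, without either of SUM44 0 in the first and 0 to 1 in the second, and without either of BT483 10 to 14 and 44 to 45.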

How the data were processed

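The authors deposited counts of joined read pairs per captured fragment and target fragment, 1 column per replicate, with the trans count of each captured fragment beside them; all values are raw counts. Per the submitters' processing notes the reads were processed with CASAVA 1.8 and positions are GRCh37 (hg19). An aligner is not given in the sources used here. Reads were counted without molecular identifiers, so intervals cover counting error only. Columns were taken by name, since the GM06990 table lists replicate 2 first. The labels do not say that the replicates were separate cultures, so p-values cover no more than the scatter of these samples, possibly technical in origin.

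Near contacts were summed by captured fragment and side of the captured region for all regions. Libraries held 306886 to 1365525 near contacts over all captured fragments. Differences between lines were tested on all captured fragments of the series with edgeR 4.0.16 (R 4.3.3) by the quasi-likelihood F test in 1 joint fit of the 6 columns, with Benjamini-Hochberg adjustment over all rows and a threshold of 0.05. Sides with a total of at least 50 (2058) took as offset the log trans count and a median library factor. The telomeric share (1027 fragments) was tested as the interaction of side and line. Windows of 50 kb with a total of at least 30 (42247) took as offset the count expected from a negative binomial regression (MASS) on a natural spline of log10 distance with 4 degrees of freedom and the log trans count, for each of the 6 regions and each column. The same model on summed replicates gave the pair calls, by a one-sided upper tail p. Two-sided intervals are exact Poisson 95% intervals. The edgeR tests of sides, shares and windows and the pair calls were tried on simulated data. The telomeric segment and the other 55 fragments of the region were compared with an exact permutation test.

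Fragments were named by position (first and last), by highest and lowest average level (up to 3 per side, of which the extremes are given), by lowest adjusted p (up to 5 per test, comparison and direction) and by called pairs; fragments 73, 84, 85, 87, 92 and 98 of the stretch profile, the 12 kb limit for the nearest pairs and the 8 fragments from 85 to 92 were chosen after their values were seen. The 45 fragments, the lists and the tests were chosen with earlier results of these data known. Alternatives were DESeq2 1.42.0, other scales, distance ranges, filters and window sizes, a replicate block, and each library left out, where the lone sample left is assumed to vary like the other lines. Contacts within the captured region and fragments without trans counts were left out. Same-numbered replicates did not deviate together (Pearson's r of deviations -0.137, -0.0673 and -0.0203 between lines over 2058 sides).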

Additional observations from a re-analysis of the deposited data

Results flagged for a closer look

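In 3 fragment sides the difference from GM06990 was not the same in the 2 breast lines, by the direct edgeR comparison of BT483 with SUM44 (n = 2 per line). The telomeric side of fragment 100 was lower in BT483 by -0.60 (log2, SE 0.17, edgeR adjusted p = 0.0229), with differences from GM06990 of 0.07 in BT483 and 0.67 in SUM44. The centromeric side of fragment 103 gave -0.50 (SE 0.16, edgeR adjusted p = 0.0395), with -0.37 and 0.13. The telomeric side of fragment 93 gave -0.49 (SE 0.16, edgeR adjusted p = 0.0467), with -0.20 and 0.29. In each of the 3, both replicates of BT483 lay below both of SUM44. BT483 was opened with trypsin and SUM44 with a dounce homogeniser, which cannot be told apart from the difference between the lines.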

How the results depend on the processing

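Counts of sides called among the 90 were 7, 3 and 3 (BT483 minus GM06990, SUM44 minus GM06990, BT483 minus SUM44). Scaled by trans counts alone they were 0, 81 and 86. Over targets 350 kb or more away the first was 5, with 0 higher in BT483. The second was 0 over targets 350 kb or more away, and the third 7 with TMM factors, 1 with DESeq2 and 8 with a replicate block. With a library left out they ran from 1 to 15, 0 to 8 and 0 to 16. Counts of shares called among the 45 fragments were 1, 5 and 0. Within 2 Mb the first 2 were 0 and 1, without the nearest 50 kb 2 and 12, with DESeq2 0 and 1, and from 350 kb 5 and 3; with a library left out they ran from 0 to 5, 0 to 15 and 0 to 1. Counts of fragment and window combinations were 6, 18 and 0. They were 0 and 5 with the fragment's own total as scale, 0 and 0 with DESeq2, and 3 and 11 with the replicate block; with a library left out they ran from 0 to 14, 0 to 45 and 0 to 2. Calls of pairs were 9 in BT483, 0 in GM06990 and 4 in SUM44. In BT483 they were 5 at an adjusted p of at most 0.001, 4 with distance only and 5 for pairs over 50 kb apart, a setting chosen after seeing the data, as was the range from 350 kb. With a Poisson background they were 57, 9 and 240. With a library left out they ran from 2 to 3 in BT483 and 1 to 5 in SUM44. Of single results, 1 reversed: fragment 87 with the window from 111700001, BT483 minus GM06990, was 2.09 with all libraries, -0.55 without BT483 replicate 2 and up to 2.39 without GM06990 replicate 2. Values of the 13 named sides kept their direction in 182 of 182 settings and stayed past the threshold in 114. Those of the 6 named shares stayed past it in 19 of 60, and those of the 24 named windows in 90 of 254. Named windows under a total of 100, or under 30 once a library was left out, gave no value there. The causes were not tested. The replicates share a number without deviating together. The replicate block changed no call of a named side and left 11 of the 24 named windows short of the threshold; the share test holds each column as a term, so no further block was fitted. Depth limits single pairs, with a few contacts expected per pair and line.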
